A study of Mus musculus with 74 samples.

Results

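The 10 genes described here are genes that astrocytes of the central nervous system express strongly: Slc1a2, Slc1a3, Slc7a10, Aldh1l1, Aqp4, Gja1, Bcan, Htra1, Gpm6a and Gfap. They were found by symbol in both deposited expression tables, 10 of the 23297 features with a symbol and of 58976 features in all, and each had 1 row in each table. The tables hold 74 libraries of RNA from cells bound by anti-CD11b magnetic beads, 45 from spinal cord, called microglia (MG) in the study, and 29 from sciatic nerve, called peripheral macrophages (MP). The values are FPKM, fragments per kilobase of transcript scaled to the mapped fragments of a library, a level corrected for gene length. Gpm6a is also well known in neurons and Htra1 in several other cell types, so the 10 genes are not all exclusive to astrocytes.

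Astrocytes clear glutamate from the synaptic space, pass water and potassium through their end feet around vessels, couple to each other through gap junctions and shape the extracellular matrix around synapses. After injury, and in the spinal cord of animals with motor neuron disease, they become reactive: the intermediate filament gene Gfap goes up, and in models with mutant SOD1 the glutamate transporter EAAT2, the product of Slc1a2, is known to be lost. CD11b is a surface protein of microglia, macrophages, monocytes and neutrophils and not of astrocytes. The files do not say by what route astrocyte RNA came into a CD11b bead fraction, and in bulk RNA fewer cells of a type and less RNA per cell cannot be told apart.

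The mice were female and on a C57BL/6J background. Mice transgenic for mutant hSOD1-G93A, which develop motor neuron disease, were sampled at pre-symptomatic stage (mean age 50.8 days, 4 MG libraries), at onset, defined by the peak of body weight (105 days, 5), at early symptomatic stage, defined by 10% weight loss (152.6 days, 4), and at end stage (169.4 days, 4). Mice with the wildtype hSOD1 transgene (WT) were sampled at ages corresponding to onset (107.3 days, 4) and end stage (165.4 days, 4), and C57BL/6J mice without a transgene (B6) at the same 2 points (109.8 and 165.6 days, 4 each). MP libraries came from G93A mice at the same 4 stages (3, 3, 4 and 4), and 4 more end-age MP libraries are described as WT in 1 label and as G93A in the others. In the grafted set every host carried mutant hSOD1-G93A and received bone marrow at onset from a wildtype hSOD1 or a G93A donor. Its MG groups hold 3 libraries each at early symptomatic and at end stage. Each MG library was made from 1 spinal cord. An MP library holds both sciatic nerves of a single animal, or of 2 pooled animals at pre-symptomatic stage. Tissue was passed through a filter and a Percoll gradient in the cold without enzymes, and the layer that holds myelin was discarded. In G93A mice stage and age move together and cannot be told apart.

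Depth is not known, since the tables hold no counts. Non-grafted MG libraries summed to 484604 to 618562 FPKM and had 10127 to 11697 features above 1 FPKM. The microglial receptor gene P2ry12 was present in each of them, at 88.4 to 2121 FPKM. So was Mbp, the myelin gene of oligodendrocytes, at 568 to 24164 FPKM. Several libraries stood apart before any test. Among the 5 onset libraries of G93A mice, replicates 1 and 4 had Mbp at 23950 and 18996 FPKM, while replicates 2, 3 and 5 had 1575, 568 and 2194 FPKM. The neutrophil gene S100a8 was above 10000 FPKM in 4 MG libraries, which were onset replicate 5 and end-stage replicate 4 of G93A and end-age replicates 1 and 2 of WT. Among grafted MG, replicate 3 of the WT-marrow early group had the lowest P2ry12 (38.9 FPKM) and the highest Mbp (21258 FPKM).

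In spinal cord MG of G93A mice, 9 of the 10 astrocyte genes were lower at end stage than before symptoms, and Gfap was the exception. The falls were 4.80-fold to 33.7-fold in mean FPKM, largest for the amino acid transporter gene Slc7a10 and the matrix gene Bcan. Gfap did not pass the test in either direction and averaged 1516 ± 1208 FPKM at end stage and 803 ± 297 FPKM before symptoms (SD, n = 4 each). Gfap made up 90.7% to 91.8% of the summed FPKM of the 10 genes at end stage and 26.8% to 42.8% before symptoms.

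**Figure D1:**
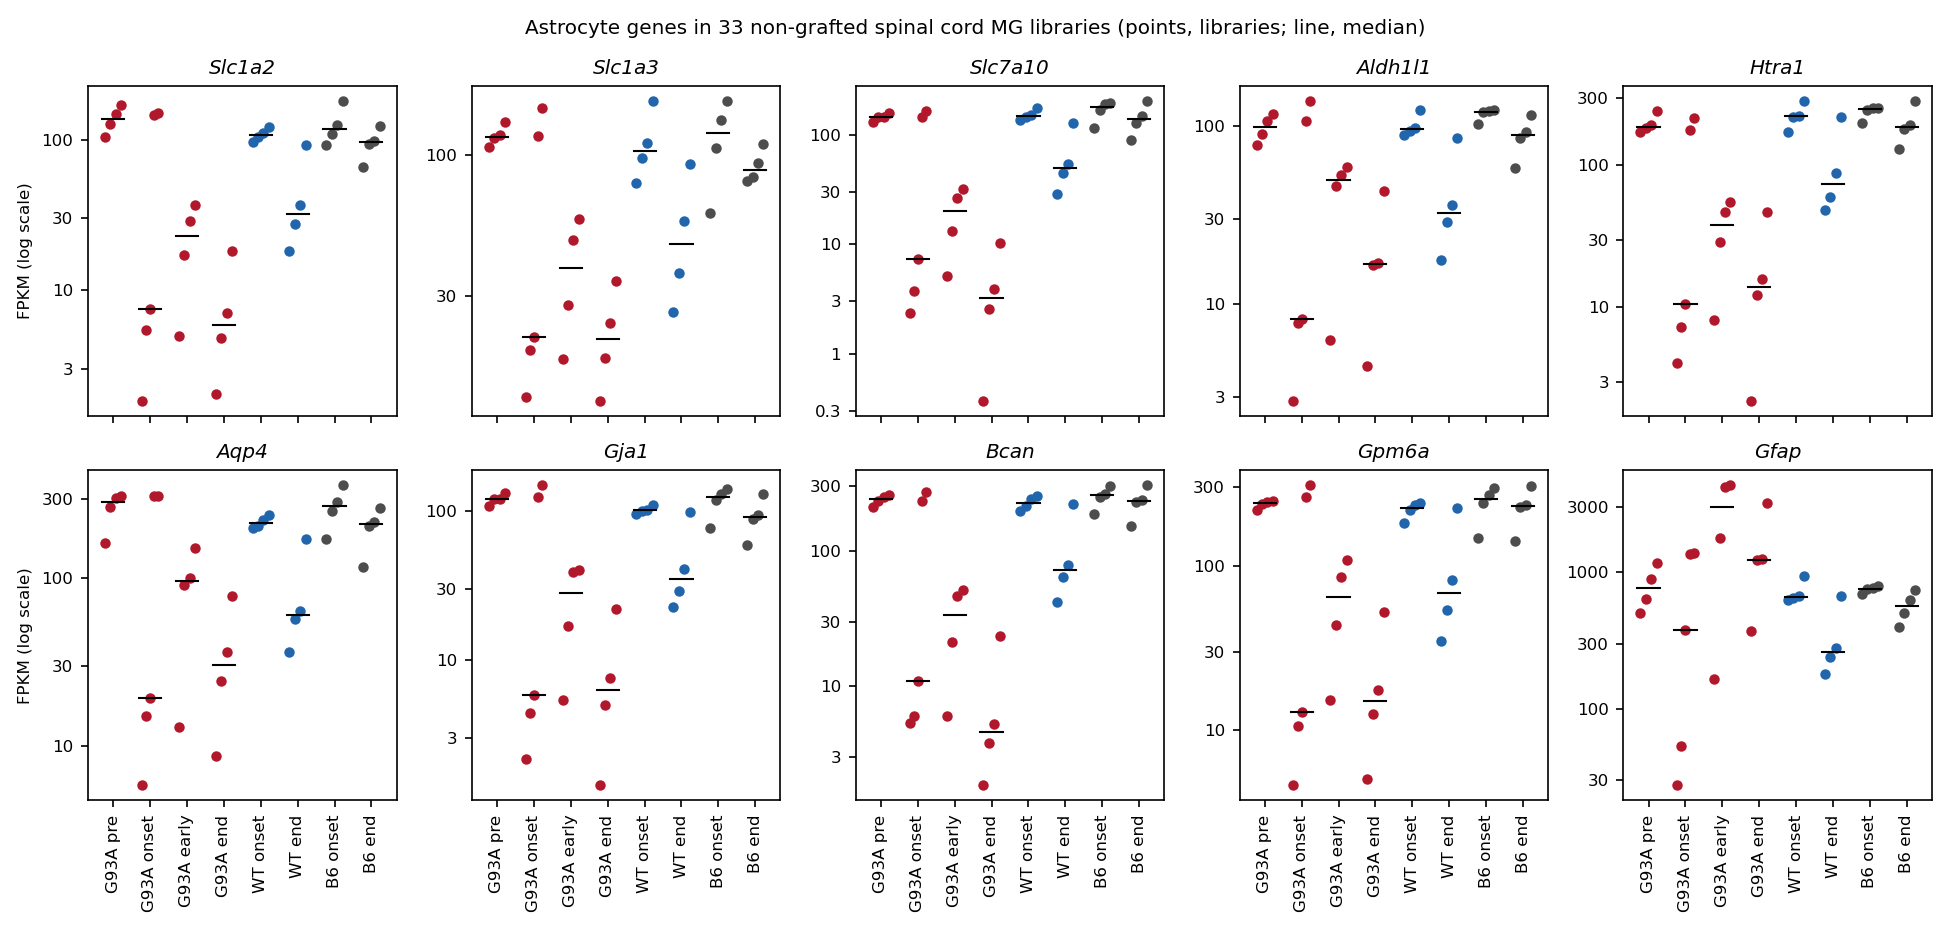
FPKM of each astrocyte gene (log scale) in the 33 non-grafted MG libraries, with 1 point per library and a line at the group median; red is G93A, blue WT and grey B6. For 9 genes the end-stage G93A points lie below all 4 pre-symptomatic points, whereas Gfap overlaps; the onset group splits into 2 high and 3 low libraries in every panel except Gfap, where replicate 2 lies between them.

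The transporter genes are described first. Slc1a2, located at chr2:102658662-102790784 on the plus strand of mm10, encodes the glutamate transporter EAAT2 (GLT-1), the main route of glutamate uptake in the adult spinal cord. Its level was 2.04, 7.04, 4.79 and 18.3 FPKM in the 4 end-stage libraries, against 148, 169, 127.25 and 104 FPKM in the 4 pre-symptomatic libraries. The groups did not overlap, and end-stage replicate 1 was the lowest. The difference in log2(FPKM + 1) was -4.23 ± 0.86 (SE; limma adjusted p = 0.000525 over 11750 genes). At early symptomatic stage the 4 libraries had 17.2, 4.97, 28.6 and 36.6 FPKM, all below the pre-symptomatic libraries, and the difference was -2.86 ± 0.86 (adjusted p = 0.0152).

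Slc1a3 (chr15:8634124-8710807, minus strand), which encodes the other glial glutamate transporter, EAAT1 (GLAST), had 12.2, 17.7, 23.9 and 34.3 FPKM at end stage, against 107, 118.85, 116.1 and 133.16 FPKM before symptoms. The groups did not overlap, but its difference of -2.47 ± 0.55 (adjusted p = 0.00103) was the smallest of the 9 genes that fell. It also had the smallest range over the 33 non-grafted MG libraries, 3.60 on the log2 scale, and its lowest level in them was 12.2 FPKM. Slc7a10 (chr7:35186385-35201111, plus strand), which encodes the neutral amino acid transporter Asc-1 of small amino acids such as glycine and D-serine, had 0.37, 3.93, 2.54 and 10.3 FPKM at end stage, against 145, 159, 130.71 and 145 FPKM before symptoms. Its difference, -5.16 ± 0.87 (adjusted p = 0.000114), was the largest, and its value in end-stage replicate 1 was the lowest of any of the 10 genes in a non-grafted MG library.

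Aldh1l1 (chr6:90550793-90599171, plus strand), a folate enzyme gene used as a general astrocyte marker, had 4.49, 16.5, 16.9 and 43.1 FPKM at end stage, against 106, 115.98, 89.5 and 77.9 FPKM before symptoms. Replicate 4 was the highest and replicate 1 the lowest end-stage library, and the groups did not overlap (-2.55 ± 0.81, adjusted p = 0.0106). Aqp4 (chr18:15389394-15411015, minus strand), the water channel gene of astrocyte end feet, had 8.68, 36.2, 24.4 and 78.2 FPKM at end stage, against 303, 312, 268 and 164 FPKM before symptoms (-3.13 ± 0.88, adjusted p = 0.00505). Gja1 (chr10:56377273-56402513, plus strand), which encodes the gap junction protein connexin 43, had 1.46, 7.55, 5.04 and 22.1 FPKM at end stage, against 118.84, 130.2, 120 and 108 FPKM before symptoms (-4.03 ± 0.87, adjusted p = 0.000817). All 4 end-stage libraries lay below all 4 pre-symptomatic libraries for both genes.

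Among the matrix, protease and membrane genes, Bcan (chr3:87987531-88000356, minus strand), which encodes the proteoglycan brevican of perineuronal matrix, had 1.86, 5.28, 3.84 and 23.4 FPKM at end stage, against 233, 252, 260.2 and 212 FPKM before symptoms (-5.14 ± 0.90, adjusted p = 0.000153). Htra1 (chr7:130936203-130985657, plus strand), a secreted serine protease gene, had 2.19, 12.3, 15.7 and 46.8 FPKM at end stage, against 173, 240.5, 184 and 192 FPKM before symptoms (-3.86 ± 0.88, adjusted p = 0.00119). Gpm6a (chr8:54779434-55060877, plus strand), which encodes a membrane glycoprotein related to the myelin proteolipid protein, had 5.01, 17.5, 12.5 and 52.6 FPKM at end stage, against 236, 247, 217 and 245 FPKM before symptoms (-3.82 ± 0.90, adjusted p = 0.00148). End-stage replicate 1 had the lowest and replicate 4 the highest level of each of these 9 genes, and replicate 4 is also the end-stage library with the highest Mbp (8319 FPKM) and S100a8 (20413 FPKM).

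Gfap (chr11:102887337-102897200, minus strand), the intermediate filament gene that marks reactive astrocytes, had 372, 1247, 1223 and 3223 FPKM at end stage, against 1176, 895, 637 and 505 FPKM before symptoms. The end-stage values reached both below and above the pre-symptomatic ones, and the difference of 0.61 ± 0.96 (adjusted p = 0.596) was smaller than its error. At early symptomatic stage it had 4329, 166, 1793 and 4183 FPKM, with 3 libraries above and 1 below every pre-symptomatic library (1.00 ± 0.96, adjusted p = 0.400).

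The count of 9 of 10 genes lower, 9 of them without overlap, stands beside a comparison in which many genes changed: of all 11750 genes tested 31.1% were lower at the same threshold, 55.9% differed in either direction, and 29.7% were lower without overlap. The median difference of the 10 genes was -3.84 and that of all genes was 0.03. Leaving out 1 library at a time left 8 or 9 genes lower. Between early symptomatic and pre-symptomatic stage 6 of the 10 were lower, against 16% of all genes, with a median of -2.37 against 0.05 for all genes. Aqp4 (adjusted p = 0.0837), Gpm6a (0.0549) and Aldh1l1 (0.117) had lower means but did not pass, although 9 genes did not overlap, against 22.9% of all genes. Early replicate 2 was the lowest library for each of the 10 genes, and without it 0 of the 10 passed, where 1534 genes passed in all. Library quality weights gave 10, in a fit where 71.1% of all genes passed. Between end and early symptomatic stage 0 of the 10 and 0 of 11750 genes passed limma's test, with 2 of the 10 at an unadjusted p under 0.05, and the median of the 10 genes was -1.29.

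**Figure D2:**
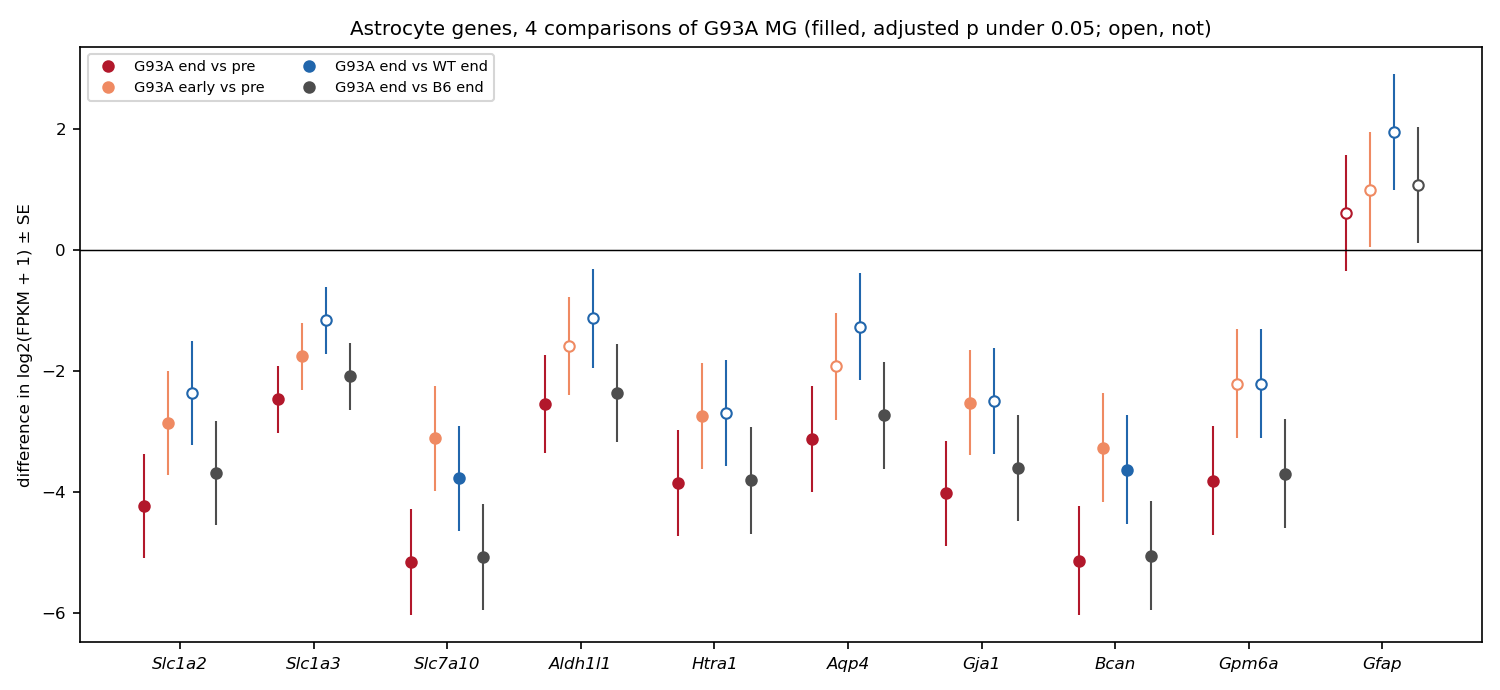
Differences in log2(FPKM + 1) of the 10 astrocyte genes with their standard errors, for G93A MG at end and early symptomatic stage against pre-symptomatic stage and at end stage against WT and B6 of end-stage age; filled points passed an adjusted p of 0.05. All points of 9 genes lie below 0, and those of Gfap lie between 0.61 and 1.95 and are open.

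End-stage G93A MG were also compared with MG of mice of the same age. Against B6 at end-stage age 9 of the 10 genes were lower in end-stage G93A MG, against 28% of all genes, and 9 did not overlap, against 27.2% of all genes. The median was -3.65, with Slc7a10 at -5.08 ± 0.87 (adjusted p = 0.000188), Bcan at -5.06 ± 0.90 (adjusted p = 0.000246) and Slc1a2 at -3.69 ± 0.86 (adjusted p = 0.00197). Slc1a2 averaged 8.04 ± 7.13 FPKM in end-stage G93A MG and 94.8 ± 23.2 FPKM in B6 (SD, n = 4 each). Gfap averaged 1516 ± 1208 FPKM in end-stage G93A MG and 568 ± 151 FPKM in B6 and did not pass (1.07 ± 0.96, adjusted p = 0.356).

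Against WT at end-stage age only Slc7a10 (-3.78 ± 0.87, adjusted p = 0.00847) and Bcan (-3.63 ± 0.90, adjusted p = 0.0141) passed, 2 of 10 against 4.19% of all genes, and 7 of the 10 had an unadjusted p under 0.05. The end-age WT libraries themselves varied. Slc1a2 had 2.04, 7.04, 4.79 and 18.3 FPKM at end stage in G93A, against 18.2, 27.5, 91.8 and 36.7 FPKM in WT, and the groups overlapped only through end-stage replicate 4. Bcan had 1.86, 5.28, 3.84 and 23.4 FPKM in G93A, against 42.0, 64.2, 222 and 79.2 FPKM in WT, with no overlap. Slc7a10 had 0.37, 3.93, 2.54 and 10.3 FPKM in G93A, against 28.6, 44.6, 128.69 and 53.9 FPKM in WT, also with no overlap. In WT replicate 3 was the highest library for all 10 genes. Of the 10 genes 4 did not overlap, against 10.6% of all genes. The count of genes lower than in WT was 0 without end-stage replicate 1, 5 without end-stage replicate 4 and 1 without WT replicate 3. In these fits 357, 1117 and 373 genes passed in all. Leaving out libraries above 10000 FPKM of S100a8 gave 7 genes, where 14.4% of all genes passed, and library quality weights gave 10, where 48.6% of all genes passed.

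The age points of the control lines were also compared. Between end and onset age, 0 of the 10 genes passed limma's test in WT (1 with an unadjusted p under 0.05; 0.128% of all genes passed) with a median of -1.44, and 0 of the 10 in B6 (0 with an unadjusted p under 0.05; 0.0681% of all genes) with a median of -0.33. In WT all 10 genes had lower means at the later age, and 4 of them did not overlap, against 10.7% of all genes. Between WT and B6 none of the 10 passed at either age and none had an unadjusted p under 0.05, while 0 of 11750 genes passed in all. The median of the 10 was -0.13 at onset age and -1.27 at end age. Slc1a2 averaged 43.5 ± 33.1 FPKM in WT and 94.8 ± 23.2 FPKM in B6 at end age (SD, n = 4 each).

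At onset the G93A libraries split. Slc1a2 had 151, 5.45, 1.84, 145 and 7.51 FPKM in onset G93A MG, against 148, 169, 127.25 and 104 FPKM before symptoms, 120.99, 96.0, 110.1 and 104 FPKM in WT and 108, 180.2, 92.4 and 125.76 FPKM in B6 of onset age. Replicates 1 and 4 lay inside the range of the other groups, and replicates 2, 3 and 5 lay below all of them. Aqp4 had 311, 19.3, 5.84, 312 and 15.1 FPKM in onset G93A MG, against 224, 205, 239 and 199 FPKM in WT, and Bcan had 233, 6.00, 5.33, 273 and 10.8 FPKM, against 214, 197, 242 and 257 FPKM in WT. The same 3 replicates were low for both genes, and they are those with low Mbp. Their mitochondrial genes held 0.735% to 1.60% of all FPKM, against 10.2% and 11.7% in replicates 4 and 1. What separates these preparations was not tested.

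With all 5 onset libraries, 9 of the 10 genes were lower than before symptoms (against 15% of all genes; median -2.68, adjusted p 0.0391 to 0.0432), 9 were lower than in B6 (against 25.7% of all genes; median -2.61) and 2, Slc7a10 and Htra1, were lower than in WT (against 3.27% of all genes; median -2.44, adjusted p = 0.0482 for both). No gene was free of overlap in any of the 3 comparisons, against 0.383%, 4.03% and 1.87% of all genes lower without overlap. The count against pre-symptomatic MG was 0 without any 1 of onset replicates 2, 3 and 5 or of pre-symptomatic replicates 1, 2 and 3, and 0 with no filter on low values or when the fit held only the 2 groups compared. Against WT the count was 0 without onset replicate 2, 3 or 5 or without any 1 WT library. The count was 9 without onset replicate 1 or 4, where 4978 and 4250 genes passed in all. It was also 0 with no filter, with median-ratio scaling or with only the 2 groups. Against B6 it was 4 without onset replicate 2 (3282 genes in all), 3 without onset replicate 3 (2245 genes in all) and 0 with only the 2 groups.

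Over the 33 non-grafted MG libraries the 9 genes other than Gfap followed each other closely. The 36 pairs among them had Pearson correlations of log2(FPKM + 1) of 0.918 to 0.996 (median 0.973), and the 9 pairs with Gfap had 0.261 to 0.586 (median 0.385). These points share the bead isolation and include the 8 groups, so the values describe these libraries only. The genes whose pattern was most like the mean of the 10, among 11740 others with a mean of at least 1 FPKM, were Fads2 (r = 0.997), Csdc2, Mboat2, Phactr3, Mlc1, Lsamp, Ntrk2, Ntm, Pygm and Ttyh1 (r = 0.994), over 33 libraries. Least like it were Dnajb11 (r = -0.925), Nfkb2, Rpl18, Timeless and Asap1 (r = -0.918). Mlc1, which encodes a membrane protein of astrocyte end feet, and Ttyh1 belong to the list of other astrocyte genes below.

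Markers of other cell types moved with the astrocyte genes. For a per-library summary the mean of log2(FPKM + 1) over a list was taken. Over the 33 libraries this mean for the 10 genes correlated with that of 22 other astrocyte genes (r = 0.998), 8 neuronal genes (r = 0.989), 10 oligodendrocyte genes (r = 0.977), 6 oligodendrocyte precursor genes (r = 0.970) and the mitochondrial share of FPKM (r = 0.909), and it ran opposite to 8 microglial genes (r = -0.717). The mean also ran opposite to nerve macrophage genes (r = -0.840), genes linked to reactive astrocytes (r = -0.498), Schwann cell genes (r = -0.481) and neutrophil genes (r = -0.438). Endothelial (r = 0.821) and ependymal genes (r = 0.859) went with it. In the 12 grafted MG libraries the genes linked to reactive astrocytes went with the mean (r = 0.815). At end stage the mean of the oligodendrocyte list was 4.38 to 6.42, against 7.09 to 7.48 before symptoms, and that of the neuronal list was 1.33 to 3.38, against 4.21 to 4.77. Neither pair of ranges overlapped. Mbp was 1317, 4368, 3609 and 8319 FPKM at end stage, against 24164, 22661, 21094 and 23455 FPKM before symptoms. The part of these co-moving markers in the falls of the astrocyte genes was not tested.

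A fit with the oligodendrocyte mean of each library as a term adjusts for that mean along a straight line. The mean did not overlap between end and pre-symptomatic stage, so this comparison carries the line beyond any shared range. It cannot show what would remain at an equal oligodendrocyte level. With that term 6 of the 10 genes were called lower at end stage than before symptoms, against 10.4% of all genes in the same fit. Their differences shrank to -1.54 for Slc1a2 (limma adjusted p = 0.00026), -2.46 for Slc7a10 (adjusted p = 1.05e-05), -2.33 for Bcan (adjusted p = 1.31e-05), -1.30 for Gja1, -1.11 for Htra1 and -1.01 for Gpm6a. Slc1a3 (-0.94, adjusted p = 0.0544), Aqp4 (-0.32, adjusted p = 0.314) and Aldh1l1 (0.06, adjusted p = 0.805) did not pass. Gfap was higher with the term, by 3.45 (adjusted p = 1.53e-05; 6.62% of all genes were higher), where it did not pass without it. Against WT at end age the term gave 6 genes lower, against 12.8% of all genes, among them Slc7a10 (-2.58), Bcan (-2.39), Htra1 (-1.48) and Slc1a2 (-1.17), and Gfap higher by 3.21 (adjusted p = 5.76e-06; 5.18% of all genes were higher). In the comparison with B6 at end age the term gave 9 genes lower, against 17.4% of all genes. Among them were Slc1a3 (-0.94, limma adjusted p = 0.0316), Aqp4 (-0.60, adjusted p = 0.0242) and Aldh1l1 (-0.39, adjusted p = 0.0205). There Gfap was higher by 3.23 (adjusted p = 3.31e-06), and 7.12% of all genes were higher. Relative to pre-symptomatic MG the term gave 5 genes lower at early symptomatic stage, against 7.43% of all genes, and Gfap higher by 2.84 (adjusted p = 3.08e-05; 9.75% of all genes were higher). At onset it gave 0 genes lower or higher against any of the 3 groups. The term and the astrocyte genes come from the same libraries, and the term itself differs between the stages.

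**Figure D3:**
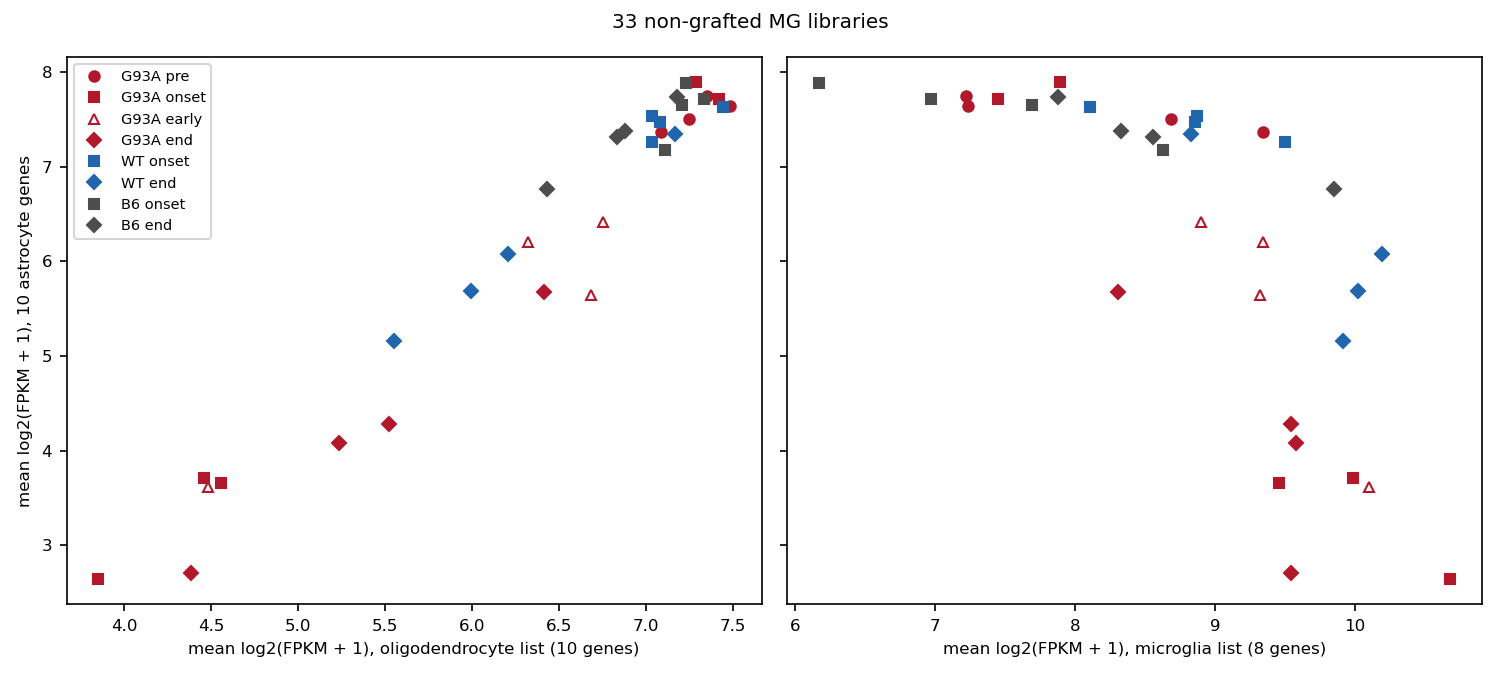
Mean log2(FPKM + 1) of the 10 astrocyte genes in the 33 non-grafted MG libraries against that of 10 oligodendrocyte genes (left) and 8 microglial genes (right), with 1 point per library. The points run upward against the oligodendrocyte list (r = 0.977) and downward against the microglial list (r = -0.717); symbols give the group.

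The marker lists were then counted gene by gene. Of the 22 other astrocyte genes, which include Fgfr3, a growth factor receptor gene, 22 were lower at end stage than before symptoms (median -3.24, Fgfr3 -4.41), against 31.1% of all genes. At early symptomatic stage 13 were lower (median -2.16), against 16% of all genes, and at onset 22 (median -2.50), against 15%. When the fit held only the onset and pre-symptomatic groups, 0 of 11822 genes passed. Of 10 oligodendrocyte genes 9 were lower at end stage than before symptoms (median -1.997), and of 8 neuronal genes 7 (median -2.13), against the same 31.1% of all genes. The median of all genes in that comparison was 0.03. Against WT at end age 5 of the 22 other astrocyte genes were lower (median -1.96, Cldn10 -3.19, Ntsr2 -3.04), against 4.19% of all genes. None of the 10 oligodendrocyte genes (median -0.82) or 8 neuronal genes (median -1.01) passed, and the median of all genes was -0.13.

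Of 10 genes linked to reactive astrocytes 6 reached the level needed for a test and 4 were not tested. All 6 were higher at end stage than before symptoms, against 24.8% of all genes (median 2.47), among them Cd44, a hyaluronan receptor gene (3.57 ± 0.68, adjusted p = 0.000307), and Lcn2, a secreted iron-carrier gene (4.46 ± 1.72, adjusted p = 0.0298). Against WT 4 of the 6 were higher, against 2.81% of all genes (median 1.43), among them Serpina3n, a protease inhibitor gene (3.12 ± 0.72, adjusted p = 0.00831). Markers of other CD11b-bearing cells were higher in the same comparison with pre-symptomatic MG: 5 of 8 neutrophil genes (median 4.05), among them S100a8 (4.32 ± 1.73, adjusted p = 0.0356), 4 of 8 microglial genes (median 1.29) and both tested genes of nerve macrophages, Cd68 (3.67) and Adgre1 (2.02). Their part in the values of the 6 genes was not tested. Microglia, macrophages or neutrophils also express several of these 10 genes, Cd44, Lcn2 and Vim among them: in end-stage nerve MP, where most astrocyte genes were near 0, Lcn2 and Cd44 were higher than in end-stage MG (MG minus MP -5.75 and -1.77). Which cells carried these genes in MG cannot be told apart in these libraries.

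The proportion of Gfap to the other genes was followed as the log2 ratio of Gfap to Slc1a2, each with 1 FPKM added. This pair was chosen with the behaviour of both genes in these libraries known, so the p-values restate it and are no independent evidence. The ratio was 6.94, 7.28, 7.72 and 7.39 in the 4 end-stage G93A libraries, against 2.98, 2.40, 2.31 and 2.27 in the pre-symptomatic libraries. The groups did not overlap, and the SD of the ratio at end stage was 0.32, over libraries whose Slc1a2 ran over 2.04 to 18.3 FPKM. The difference of the means was 4.84 (two-sided p = 0.0286 by exact permutation of the libraries, which is as small as groups of 4 can give, and 0.0444 adjusted over 7 comparisons). At early symptomatic stage the ratio was 7.90, 4.81, 5.92 and 6.80, a difference of 3.86 with the same p. In WT and B6 of end age it was 2.86 to 3.23 and 2.43 to 2.66, so that the differences of end-stage G93A were 4.31 and 4.77, with the same p for each. With Slc1a3 as the lower term in place of Slc1a2, an alternative chosen after seeing the data, the differences of end stage were 3.08, 3.12 and 3.16 from pre-symptomatic MG, WT and B6 (exact permutation, adjusted p = 0.0667 for each) and that of early stage 2.76 (adjusted p = 0.1), and none passed.

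At onset the ratio was 3.18, 5.88, 3.34, 3.22 and 2.68. Replicate 2 was the highest, replicates 1, 3 and 4 lay just above the pre-symptomatic range of 2.27 to 2.98, and replicate 5 lay inside it. The difference from pre-symptomatic MG was 1.17 (exact permutation p = 0.0317, adjusted p = 0.0444), from WT of onset age 0.95 (exact p = 0.0476, adjusted p = 0.0556) and from B6 1.06 (exact p = 0.0635, adjusted p = 0.0635), and the last 2 did not pass. Without replicate 2 these differences were 0.61, 0.40 and 0.51. The difference from pre-symptomatic MG did not pass with 5 FPKM added in place of 1 (0.75, adjusted p = 0.311) or with Aldh1l1 as the lower term (0.60, adjusted p = 0.397), and it was -0.012 with Slc1a3, all by exact permutation.

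**Figure D4:**
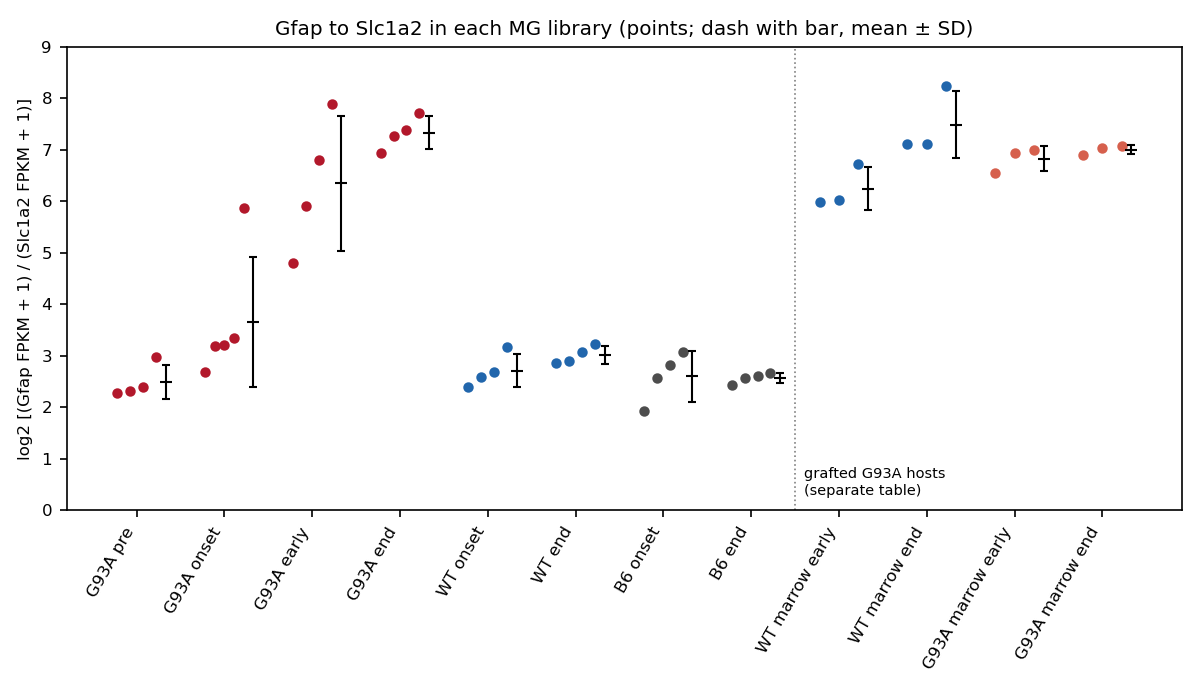
Log2 ratio of Gfap to Slc1a2, each as FPKM + 1, in every MG library, with 1 point per library; red is G93A, blue WT and grey B6, and the grafted groups stand on the right. End-stage G93A libraries lie at 6.94 to 7.72 and all WT and B6 libraries at 1.93 to 3.23, while all 12 grafted libraries lie at 5.98 to 8.24.

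Single libraries with nearly equal Slc1a2 show the same contrast. End-stage G93A replicate 4 and WT end-age replicate 1 had 18.3 and 18.2 FPKM of Slc1a2, but 3223 and 179 FPKM of Gfap. Early symptomatic G93A replicate 4 and WT end-age replicate 4 had 36.6 and 36.7 FPKM of Slc1a2, but 4183 and 280 FPKM of Gfap. These libraries were set side by side after their values were seen and are a description. Within G93A, end-stage replicate 2 and onset replicate 5 had 7.04 and 7.51 FPKM of Slc1a2, and 1247 and 53.6 FPKM of Gfap.

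Gfap was not the only gene whose proportion to Slc1a2 differed. The linear ratio of Aqp4 to Slc1a2 was 4.25 to 5.14 at end stage, against 1.58 to 2.10 before symptoms and 1.74 to 2.08 in WT of end age. That of Aldh1l1 was 2.20 to 3.53 at end stage, against 0.686 to 0.750 before symptoms and 0.926 to 1.04 in WT. That of Slc1a3 was 1.87 to 6.00, against 0.703 to 1.28 before symptoms and 1.01 to 1.55 in WT. None of these ranges overlapped between end stage and the other 2 groups, but at onset the ratio of Slc1a3 to Slc1a2 ran over 0.781 to 11.5, beyond the end-stage range. In the other direction, the ratio of Slc7a10 to Slc1a2 was 0.181 to 0.565 at end stage, against 0.937 to 1.39 before symptoms and 1.40 to 1.62 in WT, and that of Bcan was 0.750 to 1.28, against 1.49 to 2.04 and 2.16 to 2.42. Gja1 kept overlapping ratios of 0.716 to 1.21 at end stage, against 0.770 to 1.04 before symptoms and 1.06 to 1.26 in WT. The 10 genes thus did not scale together, from Slc7a10 and Bcan, lowest relative to Slc1a2, to Gfap, highest relative to it.

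Sequences around start sites of Gfap and the 2 glutamate transporter genes are shown, from 250 bases before to 10 bases after a RefSeq start site (GRCm38.p6), 5′ to 3′ on the strand of the gene. Capitals mark TTCNNNGAA, letters that STAT factors bind. STAT factors are known to act on Gfap in astrocytes, but whether they do so through the match shown was not tested.
Gfap, chr11:102897191-102897450, minus strand: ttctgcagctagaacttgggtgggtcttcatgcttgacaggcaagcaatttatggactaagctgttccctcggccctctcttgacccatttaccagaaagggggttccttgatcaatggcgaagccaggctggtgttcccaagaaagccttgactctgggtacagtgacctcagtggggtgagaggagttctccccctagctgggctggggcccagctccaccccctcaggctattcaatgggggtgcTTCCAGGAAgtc
Slc1a3, chr15:8710798-8711057, minus strand: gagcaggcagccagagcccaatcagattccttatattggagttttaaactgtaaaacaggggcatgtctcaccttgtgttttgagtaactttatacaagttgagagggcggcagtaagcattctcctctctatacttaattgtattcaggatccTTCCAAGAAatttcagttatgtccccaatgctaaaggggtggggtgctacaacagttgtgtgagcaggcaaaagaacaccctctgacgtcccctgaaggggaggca
Slc1a2, chr2:102706188-102706447, plus strand: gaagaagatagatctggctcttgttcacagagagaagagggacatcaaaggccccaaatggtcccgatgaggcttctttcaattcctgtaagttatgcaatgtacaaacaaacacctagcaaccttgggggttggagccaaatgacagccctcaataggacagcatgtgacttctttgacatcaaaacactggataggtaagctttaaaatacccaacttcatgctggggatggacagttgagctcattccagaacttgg

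In the Gfap window the match TTCCAGGAA starts at base -2 relative to the start site, and in the Slc1a3 window the match TTCCAAGAA starts at -96. The Slc1a2 window, whose start site lies inside the span that the deposited table gives for the gene, has no match. The region around the start of that span, chr2:102658662, was not searched. Windows of 300 bases, from 250 before to 50 after the start, were searched on both strands for 9 of the 10 genes, 10 windows in all. The letters TTCNNNGAA occurred in 3 of the 9 genes, Gfap, Gpm6a and Slc1a3, and in 8.3% of 32851 windows of 27025 genes. Of these 3 genes Slc1a3 and Gpm6a fell at end stage and Gfap did not. TGANTCA, bound by AP-1, was found only in Gja1 (7.81% of all windows), TTGGCA, a short site of NFI factors, only in Gpm6a (14.1%), and ACAATG, bound by SOX factors, in none (12.6%). A match is a run of letters and not a measured binding site.

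All 12 grafted MG libraries came from G93A hosts, and they were not tested against non-grafted ones because the tables were deposited apart. At early symptomatic stage the 10 genes together summed to 413, 1953 and 12287 FPKM in the WT-marrow group, against 261, 302 and 675 FPKM in the G93A-marrow group. Slc1a2 had 4.40, 26.01 and 103.36 FPKM with WT marrow, against 1.48, 1.26 and 3.80 FPKM with G93A marrow, and Gfap had 352, 1702 and 11084 FPKM, against 232, 275 and 613 FPKM. All WT-marrow libraries were above all G93A-marrow libraries for Slc1a2 but not for Gfap, and the 3 WT-marrow libraries were far apart from each other. Gfap in WT-marrow replicate 3 was its highest value in any of the 74 libraries, and Mbp in that library was 21258 FPKM, against 951 and 5325 FPKM in the other WT-marrow libraries and 446 to 1786 FPKM with G93A marrow.

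None of the 10 genes passed limma's test between WT and G93A marrow at early symptomatic stage (adjusted p 0.407 to 0.422), and neither did any of the 11143 genes tested, although all 10 had an unadjusted p under 0.05. The median of the 10 was 2.65, higher with WT marrow, against -0.06 for all genes, and 6 genes did not overlap, against 5.21% of all genes. The result depended on 1 library: all 10 genes passed without WT-marrow early replicate 1, in a fit where 1256 genes passed in all. Without any of the other 5 libraries 0 of the 10 passed. The lists of 22 other astrocyte genes (median 2.82), 10 oligodendrocyte genes (1.70) and 7 tested neuronal genes (1.54) lay on the same side, and the 8 microglial genes on the other (-0.80), with 0 called in each. Their part in the difference was not tested.

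At end stage 0 of the 10 genes passed between WT and G93A marrow by limma, 0 had an unadjusted p under 0.05, and the median was 0.63. Slc1a2 had 2.15, 1.24 and 7.78 FPKM with WT marrow, against 3.76, 1.02 and 3.36 FPKM with G93A marrow, and Gfap had 438, 674 and 1216 FPKM, against 640.0, 242 and 573 FPKM. Both genes overlapped. Between end and early symptomatic stage 0 of the 10 passed with either marrow by limma, where 6 had an unadjusted p under 0.05 with WT marrow (median -1.89) and 0 with G93A marrow (median 0.29). The count with WT marrow was 7 without its early replicate 1, in a fit where 875 genes passed in all. The difference between the 2 marrows in the change from early to end stage did not pass for any of the 10 genes either (2 with an unadjusted p under 0.05).

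The proportion of Gfap to Slc1a2 was high in every grafted MG library. Its log2 ratio was 6.03, 5.98 and 6.73 at early and 7.12, 8.24 and 7.11 at end stage with WT marrow, and 6.55, 6.93 and 6.999 at early and 7.07, 6.91 and 7.04 at end stage with G93A marrow. Gfap made up 85.3% to 92.5% of the summed FPKM of the 10 genes in these 12 libraries. In the WT-marrow early group the ratio spanned 5.98 to 6.73 while the sum of the 10 genes spanned 413 to 12287 FPKM.

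The sciatic nerve libraries serve as the contrast, since peripheral nerve holds Schwann cells and no astrocytes. The mean of log2(FPKM + 1) over the 10 genes was 2.64 to 7.90 in the 33 non-grafted MG libraries, against 0.00426 to 2.56 in the 18 non-grafted MP libraries. Their summed FPKM was 78.0 to 4749 in MG, against 0.03 to 1099 in MP, with medians of 2010 and 5.07. Slc1a2 and Slc7a10 were listed at 0 in 13 of the 18 MP libraries and Bcan and Aqp4 in 12 each, whereas none of the 10 genes was listed at 0 in an MG library.

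**Figure D5:**
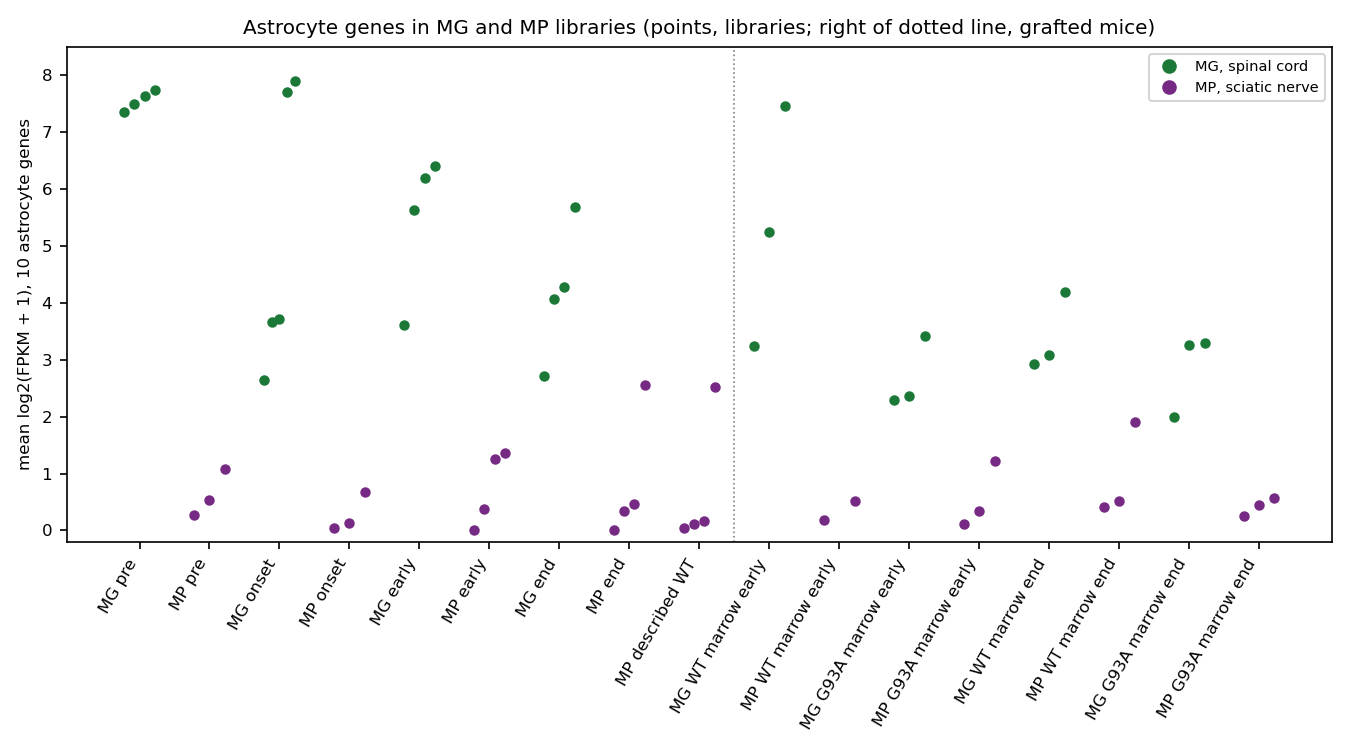
Mean log2(FPKM + 1) of the 10 astrocyte genes in MG (green) and MP (purple) libraries of the same stage, with 1 point per library; groups right of the dotted line are from grafted mice. Non-grafted MG lie at 2.64 to 7.90 and non-grafted MP at 0.00426 to 2.56; the highest MP points are end-stage G93A replicate 2, described-as-WT replicate 1 and WT-marrow end replicate 1.

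The fit of MG and MP together kept genes by their mean over the libraries of both. In MP alone Slc1a2, Slc1a3, Slc7a10, Gja1 and Htra1 had means under 1 FPKM over the 18 libraries. These 5 genes thus entered the fit through their level in MG, and no count over the 10 genes is given for MG against MP. Before symptoms Slc1a2 had 148, 169, 127.25 and 104 FPKM in MG, against 0, 0.04 and 0 FPKM in MP. Gfap, which reached the level in MP too, had 1176, 895, 637 and 505 FPKM in MG, against 0.93, 0.05 and 3.08 FPKM in MP. Neither gene overlapped between the preparations at that stage. At end stage Gfap had 372, 1247, 1223 and 3223 FPKM in MG, against 0.03, 1046, 6.95 and 1.35 FPKM in MP, and the groups overlapped through MP replicate 2. In MP alone 5 of the 10 genes reached the level needed for a test, and none differed between end and pre-symptomatic stage by limma (1 with an unadjusted p under 0.05, and 0.00975% of all genes passed).

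The end-stage minus pre-symptomatic difference in MG was then set against that in MP. For genes near 0 in MP at both stages this contrast restates the fall in MG. Of the 5 genes that reached the level in MP, Bcan (-5.31 ± 1.28, adjusted p = 0.00631) and Aqp4 (-4.31 ± 1.38, adjusted p = 0.025) were lower in MG by limma, against 9.51% of all genes. Both were listed at 0 in 12 of the 18 MP libraries, with a median of 0 in end-stage and in pre-symptomatic MP. For these 2 genes too the contrast mostly restates the fall in MG. Aldh1l1 (-2.47, adjusted p = 0.117), Gfap (-1.95, adjusted p = 0.504) and Gpm6a (-1.27, adjusted p = 0.507) did not pass limma's test. With a pseudocount of 0.1 neither Bcan (adjusted p = 0.0503) nor Aqp4 (adjusted p = 0.0940) passed by limma, and the value of Gpm6a turned to 1.26. At that setting Slc1a2, Slc1a3 and Slc7a10 passed, all under 1 FPKM in MP, where 13% of all genes passed. Aqp4 did not pass without MG end-stage replicate 1 (-3.77, adjusted p = 0.0671) or MP end-stage replicate 2 (-3.08, adjusted p = 0.0864), and without that MP library the difference for Gfap was 0.20.

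A few MP libraries held transcripts of some of the 10 genes well above the others. End-stage G93A replicate 2 had Gfap at 1046, Aqp4 at 29.1, Aldh1l1 at 9.66, Bcan at 8.67 and Slc1a2 at 2.22 FPKM, while Gfap was 0.03, 6.95 and 1.35 FPKM in the other 3. That library also had Mbp at 2410 FPKM, against 49.4, 70.8 and 18.9 FPKM in the other 3, and P2ry12 was listed at 0 in it. Its log2 ratio of Gfap to Slc1a2 was 8.35. Replicate 1 of the MP libraries described as WT had Gfap at 16.4 and Slc1a2 at 5.24 FPKM, a log2 ratio of 1.48, with Mbp at 768 FPKM, and WT-marrow end replicate 1 had Gfap at 140.2, Htra1 at 23.9 and Slc1a2 at 0.09 FPKM, with Mbp at 1553 FPKM. These 3 libraries had the highest Mbp of their groups. Which cells the transcripts came from, and what carried them into these libraries, was not tested.

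For MG against MP at end stage of grafted mice no count is given either. Slc1a2 had 2.15, 1.24 and 7.78 FPKM in MG, against 0.09, 0.35 and 0.12 FPKM in MP with WT marrow, and the groups did not overlap. With G93A marrow it had 1.02 to 3.76 FPKM in MG, against 0 to 0.19 FPKM in MP. Htra1 overlapped with WT marrow, at 7.79 to 11.8 FPKM in MG and 0 to 23.9 FPKM in MP.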

How the data were processed

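RNA sequencing was done on anti-CD11b bead fractions of spinal cord and sciatic nerve. FPKM values per gene were deposited by the authors in a table of 51 non-grafted and a table of 23 grafted libraries, written with decimal commas. Per the submitters' processing notes FastQC, Picard, SAMtools, DESeq2, R 3.2.5 and mm10 were used, with no role named. No source used here names the aligner, the counting or the use of strand. Low FPKM values showed no steps of whole reads, so depth is unknown and no counting interval is given.

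Each table was fitted apart. Genes with a mean of at least 1 FPKM over the libraries of a fit were tested on log2(FPKM + 1) with limma 3.58.1 (R 4.3.3): a mean per group, empirical Bayes with a trend, and Benjamini-Hochberg adjustment over all genes tested. All groups of a preparation shared 1 estimate of the spread, MG and MP were fitted together where they were compared, and the threshold was an adjusted p of 0.05. A fold change on this scale understates that of low genes. The fit was tested on simulated data. The log2 ratio of Gfap to Slc1a2 was compared by exact permutation of the libraries (two-sided) and adjusted over 7 comparisons. Python 3.11.15, pandas 2.3.3, scipy 1.17.1 and numpy 2.4.6 made the summaries.

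The 10 genes and the marker lists were chosen with earlier results of these data known, and they support nothing by being chosen. All 10 genes are named, and so are at most 2 called genes per other list, direction and comparison with the largest change, and the 10 and 5 genes most and least like the mean of the 10. One gene that this rule names is not reported here. The 4 MP libraries with conflicting labels entered the MP spread and no comparison. Promoter windows came from RefSeq (GRCm38.p6), where 9 of the 10 symbols had a window. Alternatives were another pseudocount, no filter on low values, median-ratio scaling, only the groups compared, the replicate number as a block, library quality weights, an oligodendrocyte term, and each library left out in turn.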

Additional observations from a re-analysis of the deposited data

Results flagged for a closer look

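Values of the 10 genes were screened for a library far from the rest of its group in groups of 4 to 10 libraries, 110 gene-by-group sets in all, of which 20 had one. Chance gives about 1 in 20. In MG these were Bcan in end-stage G93A replicate 4 (23.36 FPKM, others 1.86 to 5.28) and Gfap in WT onset-age replicate 4 (944.65 FPKM, others 623.21 to 666.33).

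The other 18 were in MP, where most values are near 0. In end-stage G93A replicate 2 they were Gfap at 1046.35, Aqp4 at 29.09, Aldh1l1 at 9.66, Bcan at 8.67, Slc1a2 at 2.22 and Gja1 at 1.94 FPKM. In replicate 1 of the libraries described as WT they were Gfap at 16.35, Gpm6a at 10.74, Aqp4 at 8.95, Bcan at 8.15, Htra1 at 7.30, Slc1a2 at 5.24 and Slc7a10 at 1.92 FPKM. The remaining ones were Gpm6a at 4.30 FPKM in early symptomatic replicate 2, Slc1a3 at 2.77 in early replicate 1, Bcan at 1.43 in early replicate 4, Slc1a2 at 0.01 in early replicate 3 and Gpm6a at 0.09 in end-stage replicate 4.

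Some genes were flagged because limma's test of the end-stage minus pre-symptomatic difference in MG against that in MP passed. On the log2(FPKM + 1) scale, MG minus MP, these were Bcan (-5.31), Slc7a10 (-5.12), Slc1a2 (-4.63), Aqp4 (-4.31), Htra1 (-3.85), Gja1 (-3.74) and Slc1a3 (-3.34). Of all genes 19.8% passed and 9.51% were lower. With a pseudocount of 0.1 Bcan, Aqp4, Gja1 and Htra1 no longer passed. Slc1a2, Slc1a3, Slc7a10, Gja1 and Htra1 had means under 1 FPKM in MP, so for these the contrast restates the fall in MG. Bcan and Aqp4 were listed at 0 in 12 of the 18 MP libraries each, so for these it mostly does so too.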

How the results depend on the processing

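Counts are of the 10 genes past the threshold. Library quality weights gave 10 for early against pre-symptomatic stage, 9 for end against early stage, 10 for end stage against WT and 10 for onset against WT, where 71.1%, 27.6%, 48.6% and 67.5% of all genes passed. At onset against pre-symptomatic stage the count was 0 with no filter on low values, in a fit of the 2 groups alone, with the replicate block, with the oligodendrocyte term, and when libraries above 10000 FPKM of S100a8 were left out, and against WT it was 0 under the same 5 settings and under median-ratio scaling. Against B6 at onset it was 0 in a fit of the 2 groups alone or with the oligodendrocyte term, and 3 with the replicate block, where 26.3% of all genes passed. End stage against WT gave 7 with the oligodendrocyte term (18% of all genes) and 7 without the S100a8 libraries (14.4%). With a pseudocount of 0.1 only Slc1a2, Slc1a3 and Slc7a10 passed for the difference of the MG and MP changes. All had means under 1 FPKM in MP, and 13% of all genes passed.

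Leaving out 1 library gave 8 to 9 genes for end against pre-symptomatic stage, 0 to 7 for early, 0 to 10 for onset, 0 to 5 for end stage against WT, 7 to 9 against B6, 0 to 9 for onset against WT and 3 to 10 against B6. It gave 0 to 10 for WT against G93A marrow at early stage and 0 to 7 for end against early stage with WT marrow. All genes that passed numbered 1256 and 875 at these highest counts. The other comparisons within MG or within MP gave 0. No count is given for MG against MP, since some of the 10 genes entered those fits only through MG.

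The difference in the log2 ratio of Gfap to Slc1a2 at onset passed with a pseudocount of 0.1 against WT (1.11) and B6 (1.23), and against pre-symptomatic MG it no longer passed with a pseudocount of 5 (0.75) or with Aldh1l1 as the lower term (0.60). With Slc1a3 as the lower term, chosen like Aldh1l1 after seeing the data, it was 3.08 for end and 2.76 for early against pre-symptomatic stage, 3.12 for end stage against WT and 3.16 against B6, none past the threshold after adjustment, and at onset it turned to -0.012 against pre-symptomatic MG, -0.037 against WT and -0.10 against B6. Leaving out 1 library gave 4.71 to 5.00 for end, 3.35 to 4.38 for early and 0.61 to 1.41 for onset against pre-symptomatic stage, 4.18 to 4.45 and 4.64 to 4.90 for end stage against WT and B6, and 0.40 to 1.19 and 0.51 to 1.31 for onset against WT and B6. The two-sided p is 2 times the smaller tail, so that groups of 3 and 4 give at least 0.0571 by exact permutation.

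Libraries with the same replicate number did not deviate together (median r -0.028 over all same-number pairs, lowest -0.821, highest 0.809), so they share only a number. With the replicate block the ratio differences were 4.84, 3.86 and 1.41 for end, early and onset against pre-symptomatic stage and 4.31 and 4.77 for end stage against WT and B6, where 4 pairs cannot pass.

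Of single genes, the oligodendrocyte term turned Aldh1l1 to 0.058, 0.10 and 0.26 at end, early and onset against pre-symptomatic stage, and to 0.020 at end stage and 0.0091 at onset against WT. It turned Gfap at onset to 1.08, 0.97 and 1.00 and Aqp4 to 0.17, 0.19 and 0.035, against pre-symptomatic MG, WT and B6. A pseudocount of 0.1 turned the difference of changes of Gpm6a to 1.26, and leaving out 1 library moved that of Gfap over -3.13 to 0.20. The cause of these changes was not tested. Median-ratio scaling moved the median of all genes by -0.14 for onset against B6, -0.10 against pre-symptomatic stage, -0.13 for WT against B6 at onset age, 0.12 for end against early stage with G93A marrow, 0.42 for MG against MP before symptoms, 0.17 at end stage with G93A marrow and -0.39 for the difference of changes, and it turned none of the 10 genes. Without counts the depth behind these values is unknown, so low FPKM values carry no interval.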

Other observations

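Gfap held a different share of the summed FPKM of the 10 genes along the stages. The median share was 31.8% in pre-symptomatic, 42.3% in onset, 83.4% in early symptomatic and 90.8% in end-stage G93A MG, against 35.8% in WT and 29.8% in B6 MG of end age. Onset replicate 2 had 81.9%, inside the early symptomatic range of 67.1% to 93.1%. Onset replicates 3 and 5, with Slc1a2 at 1.84 and 7.51 FPKM against 5.45 FPKM in replicate 2, had 35.5% and 37.1%.

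In the same windows around RefSeq start sites CCAAT was found in Aldh1l1, Bcan, Htra1 and Slc1a3, and in 37.4% of all windows. TATAAA was found in Gpm6a and Slc1a3, and in 13.6% of all windows. These matches are letters only.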
